A study of Mus musculus with 7 samples.

Results

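The array titled A2B5_mas was compared with the array titled PSA-NCAM_mas, the only brain DNA among the 7 mouse (C57BL/6) samples of a custom Illumina GoldenGate methylation array. Each title stands for 1 array, so every difference below is a description of this pair, without a replicate check, an error between samples or a p-value. The remaining 5 arrays, titled Met_0, Met_25, Met_50, Met_75 and Met_100, hold control DNA and served to choose the probes: 331 of the 382 probes rose by at least 0.3 from Met_0 to Met_100 in beta value (the methylated fraction, from 0 to 1) and are called responsive here. The nearest probes inside this limit were Olig2, Crhr2 and Pou4f3, with rises of 0.305, 0.306 and 0.310, and those just outside it included Sstr4 and P2rx6, with 0.298 and 0.294. The labels give genomic DNA from brain for both samples and name no region, age, sex, treatment, sorting step or number of animals, and the meaning of the title ending was not given. The 382 probes are those that could be analysed here, and they cover 381 gene symbols, mostly receptors, with the place of the measured CpG in each gene not stated.

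A2B5 is a ganglioside epitope that antibodies detect on glial progenitors and young oligodendrocyte lineage cells. PSA-NCAM is the neural cell adhesion molecule carrying polysialic acid, typical of migrating neuroblasts. DNA methylation at a promoter often accompanies a silent gene, CpG-rich promoters are mostly unmethylated whether or not the gene is active, and the best-known case in this lineage choice is Gfap, the astrocyte filament gene, whose promoter loses methylation as neural precursors gain the ability to form astrocytes. A beta value is an average over all alleles and cells in a sample, so a different mixture of cells and a different level within cells cannot be told apart here, and no expression was measured. No gene on the array other than Ncam1 relates to the epitopes themselves, so the sample titles could not be checked against markers.

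Here 5 promoter windows are shown to make plain what kinds of sequence lay upstream of genes at both ends of the comparison: 3 genes that were higher in A2B5 and 2 that were lower. Each is the stretch of 250 bases before the transcription start in RefSeq (GRCm38.p6), read 5′ to 3′ on the gene's strand, with every CpG in capitals. The window of Gfap is the only one RefSeq lists for it and that of Dusp5 likewise, while the first of 2 listed windows is shown for Cnr2 and P2rx7 and the first of 4 for Sptbn4, the current symbol of the probe Spnb4. The measured CpG may lie outside them.
Gfap, chr11:102897201-102897450, minus strand: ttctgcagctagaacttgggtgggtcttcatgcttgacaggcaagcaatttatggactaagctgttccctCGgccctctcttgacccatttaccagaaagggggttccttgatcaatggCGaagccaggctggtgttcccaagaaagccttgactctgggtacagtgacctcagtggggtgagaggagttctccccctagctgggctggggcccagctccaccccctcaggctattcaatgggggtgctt
Cnr2, chr4:135894939-135895188, plus strand: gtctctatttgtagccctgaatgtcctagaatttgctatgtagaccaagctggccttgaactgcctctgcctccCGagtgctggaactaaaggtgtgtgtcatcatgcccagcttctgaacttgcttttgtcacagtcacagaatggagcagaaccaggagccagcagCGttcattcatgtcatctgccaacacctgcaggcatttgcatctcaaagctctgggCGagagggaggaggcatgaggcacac
P2rx7, chr5:122643677-122643926, plus strand: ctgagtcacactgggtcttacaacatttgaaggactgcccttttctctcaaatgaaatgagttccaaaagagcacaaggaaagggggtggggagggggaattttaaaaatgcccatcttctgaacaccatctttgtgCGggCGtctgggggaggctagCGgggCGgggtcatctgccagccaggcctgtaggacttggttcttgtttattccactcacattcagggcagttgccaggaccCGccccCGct
Sptbn4, chr7:27446590-27446839, minus strand: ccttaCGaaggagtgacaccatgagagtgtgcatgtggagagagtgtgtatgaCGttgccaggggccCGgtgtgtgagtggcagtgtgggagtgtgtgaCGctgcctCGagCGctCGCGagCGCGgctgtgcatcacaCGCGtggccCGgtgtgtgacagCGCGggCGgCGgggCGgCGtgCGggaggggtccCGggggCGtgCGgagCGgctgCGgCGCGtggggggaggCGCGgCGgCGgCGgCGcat
Dusp5, chr19:53528895-53529144, plus strand: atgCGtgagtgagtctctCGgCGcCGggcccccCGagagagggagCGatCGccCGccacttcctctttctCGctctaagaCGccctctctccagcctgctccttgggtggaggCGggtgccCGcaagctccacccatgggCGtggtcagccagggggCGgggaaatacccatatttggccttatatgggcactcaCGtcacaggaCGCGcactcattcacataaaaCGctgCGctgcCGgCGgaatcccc
These windows hold 2 CpGs for Gfap, 3 for Cnr2 and 6 for P2rx7, against 33 for Sptbn4 and 21 for Dusp5. These examples were picked and do not stand for all: Gal3st1, also lower in A2B5, has a mean of 11 CpGs in its windows of 300 bases, and Dld and Edg8, both higher, have 18 and 27. The counts over all probes are given at the end.

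Of the 331 responsive probes, 38 (11.5%) were higher by 0.05 or more in A2B5 and 3 (0.906%) were lower by as much. The size of 0.05 was a fixed rule and not an error limit. From Met_25, Met_50 and Met_75 the SD of a difference of 2 arrays was put at 0.0326. This estimate counts any bend of a probe's Met curve as array error, so it may be too large. Single probes may still pass 0.05 by array error, and the spread between samples of one kind is unknown. Quantile normalization of the pair, which forces both arrays to one distribution, turned this split of 38 against 3 into 7 against 10, so the excess of higher probes rests on taking the deposited values as comparable between arrays. Counting any size, 211 probes (63.7%) were higher in A2B5 as deposited and 173 after quantile normalization. The 7 probes higher after quantile normalization were all among the 38, of which 4 turned negative, and the 3 lower probes, Spnb4, Dusp5 and Gal3st1, were among the 10.

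Genes of glial cells stood at both ends. Gfap had a beta value of 0.640 in A2B5 and 0.549 in PSA-NCAM. Edg8 (now S1pr5), the sphingosine 1-phosphate receptor of oligodendrocytes, had 0.686 and 0.600. Gm98 (now Myrf), the transcription factor that switches on myelin genes, had 0.236 and 0.173, the latter below its Met_0 value of 0.221. These genes were more methylated in the sample named after the glial marker. Gal3st1, the sulfotransferase that makes the myelin lipid sulfatide, went the other way with 0.183 and 0.233, so the myelin genes did not share a direction. Its difference of -0.0503 only just passed 0.05, and both values lay below its Met_0 value of 0.353. Gje1, with 0.615 and 0.501, had the largest difference of all responsive probes (0.114). RefSeq lists this symbol as an older name of Gjc3, a connexin of myelinating glia, as well as a current gene, so which connexin was probed is uncertain.

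**Figure D1:**
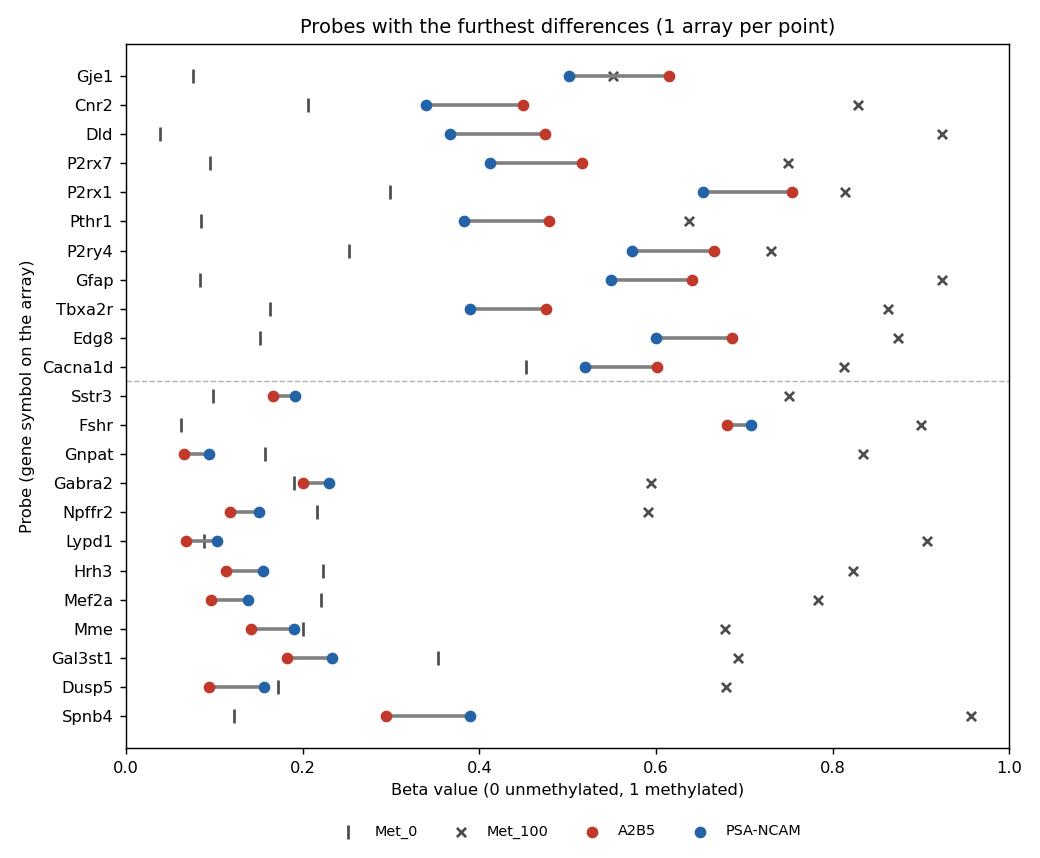
Beta values (x axis, 0 to 1) of 11 of the 12 responsive probes highest in A2B5 relative to PSA-NCAM (above the dashed line) and of the 12 lowest (below it), 1 array per point, with Met_0 and Met_100 as tick and cross. The higher probes mostly lie at middle levels, such as Gfap at 0.640 and 0.549, and the lower ones mostly under 0.25, with Spnb4 and Fshr as the exceptions; Gje1 in A2B5 (0.615) lies above its own Met_100 (0.551).

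Other probes far toward A2B5 included several receptors. Cnr2, the cannabinoid receptor of immune cells, had 0.449 in A2B5 and 0.340 in PSA-NCAM; this symbol is also an older name of a protocadherin (Pcdha6). The ATP-gated channels P2rx7 and P2rx1 had 0.516 against 0.412 and 0.754 against 0.653. Pthr1 (now Pth1r), the parathyroid hormone receptor, had 0.478 and 0.382, and Tbxa2r, the thromboxane receptor of platelets and smooth muscle, 0.476 and 0.389. Dld, the lipoamide dehydrogenase shared by mitochondrial enzyme complexes, had 0.474 and 0.367. Among responsive probes it was the only non-receptor with a difference over 0.1 apart from Gje1. Its Met_0 value was 0.0390 and its Met_100 value 0.923, so this probe spans nearly the whole scale. Its Met_25 value was 0.446, and on the scale of the Met titles the brain arrays read 30.4 and 20.1. That scale orders the higher probes otherwise. On it P2ry4 differed by 38.3, Cacna1d by 33.0 and P2rx7 by 26.4. Cnr2 differed by 6.34, Gfap by 4.05 and Gje1, at the top of the scale in A2B5, by 5.41.

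In the opposite direction, Spnb4, the beta-spectrin that anchors sodium channels at nodes of Ranvier, had 0.294 in A2B5 and 0.390 in PSA-NCAM. This axonal gene was therefore the more methylated in the sample named after the neuronal marker. Its difference of -0.0955 was the furthest of all responsive probes on that side in beta value. Its Met curve is steep there, from 0.122 in Met_0 to 0.877 in Met_25. On the scale of the Met titles the arrays read 5.71 and 8.87, a difference of -3.16, where Adra1b had -4.88. Dusp5, a phosphatase that inactivates ERK, had 0.0941 and 0.156, and Mme (neprilysin, a peptidase of amyloid and neuropeptides) 0.142 and 0.190. Mef2a, a transcription factor of muscle and neurons, had 0.0963 and 0.138, and Hrh3, the presynaptic histamine receptor, 0.113 and 0.155. All 5 had beta values in Met_0 of 0.122 to 0.223, and for all but Spnb4 both brain arrays lay below Met_0. That is common among responsive probes of low level. Both arrays read 0, the lower end of the Met curve, at 138 of 178 probes under 0.1 in mean level. From 0.1 to 0.2 this held for 33 of 53 probes, and from 0.2 to 0.4 for 13 of 42. Lypd1 and Gnpat, also among the 12 lowest, had 0.0683 in A2B5 against 0.103 in PSA-NCAM and 0.0660 against 0.0944.

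These values have to be read against the level, because the difference moved with it. In the 49 responsive probes with a mean of both arrays from 0.4 to 0.8 the median difference was 0.0591, and 30 of them were among the 38 higher probes, whereas in the 178 probes under 0.1 the median was -6.1e-05 and none was. On the log2(beta / (1 - beta)) scale, which stretches both ends, the median difference still went from -0.0014 under 0.1 to 0.0777 between 0.1 and 0.2, 0.178 between 0.2 and 0.4, 0.386 between 0.4 and 0.8 and 0.380 above 0.8. On this scale too the median was larger at middle and high levels than under 0.2. For the same 49 probes the step from Met_50 to Met_75 had a median of 0.0570, about as large as the difference between the brain arrays, and read off each probe's own Met curve their median difference was 7.14 on the scale of the numbers in the Met titles. Of the 38 higher probes, 37 had a mean level of 0.2 or more, a range that holds only 100 of the 331 probes. The share higher in A2B5 by any size moved with level too. It was 89 of 178 probes under 0.1, 36 of 53 from 0.1 to 0.2 and 32 of 42 from 0.2 to 0.4. Above that it was 46 of 49 from 0.4 to 0.8 and 8 of 9 above 0.8.

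Each probe was therefore also set against a level reference, the median difference of the 30 other responsive probes nearest to it in mean level. This reference ran from -0.0064 to 0.0623. After its subtraction 5 probes (1.51%) were at least 0.05 above it and 11 (3.32%) at least 0.05 below it, and 170 (51.4%) lay above it by any amount. The 5 above were Cnr2 (by 0.0713), Dld (0.0648), P2rx7 (0.0565), Gje1 (0.0558) and Pthr1 (0.0535). Gfap exceeded probes of its level by 0.0338, Edg8 by 0.0278 and Gm98 by 0.0473, all less than 0.05. Much of the difference of Gfap was thus shared by other probes near its level.

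The 11 probes below their reference included genes that had hardly differed as deposited. Spnb4 (-0.129), Dusp5 (-0.0679), Gal3st1 (-0.0657) and Mme (-0.0561) were low on both counts. Fshr, the follicle-stimulating hormone receptor of the gonads, had 0.680 in A2B5 and 0.708 in PSA-NCAM, 0.0876 below probes of its level. Adra1b, an alpha-1 adrenergic receptor, had 0.444 and 0.469 and lay 0.0740 below, and Tectb, the beta-tectorin of the inner ear, had 0.638 and 0.644 and lay 0.0668 below. Myo5a (an organelle motor), Sgce (the imprinted epsilon-sarcoglycan), Ppp2r5c (a phosphatase subunit) and Ifng (interferon gamma) completed this set, from 0.0548 to 0.0584 below. For Ppp2r5c, at 0.943 and 0.947, few probes lie as high, and the median difference of the 9 probes above 0.8 was only 0.0289, so its 30 nearest probes reach down to lower levels, and it was not among the 10 probes lower by 0.05 after quantile normalization. At middle levels, then, Tectb, Sgce and Ifng stayed nearly level between arrays while most probes around them were higher in A2B5. Fshr (-0.0276) and Adra1b (-0.0250), also at middle levels, were lower in A2B5.

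**Figure D2:**
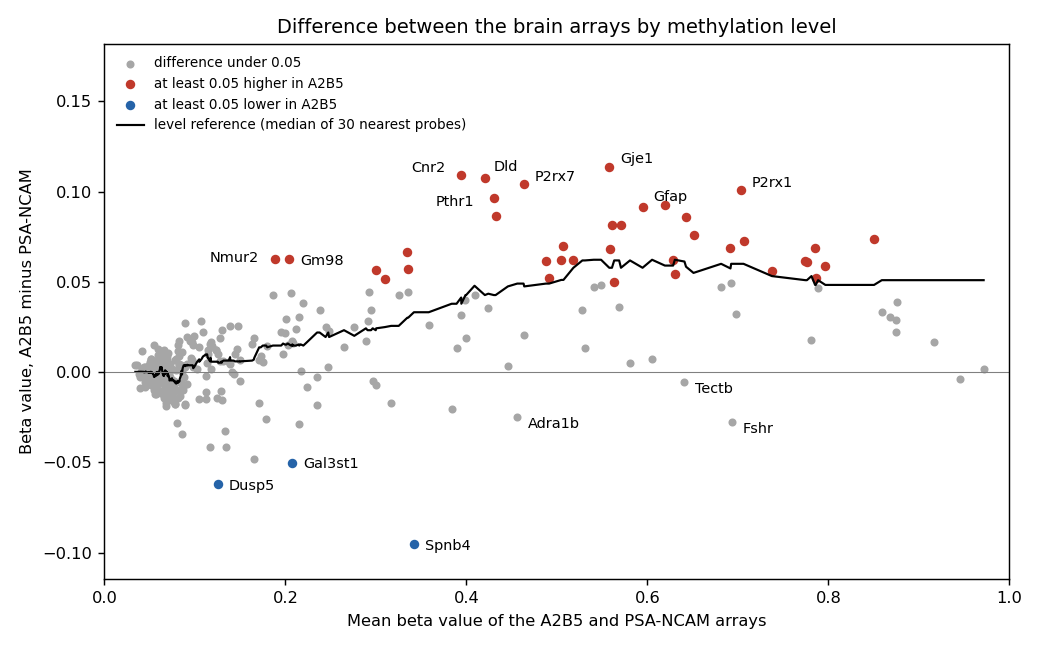
Difference in beta value, A2B5 minus PSA-NCAM (y axis), against the mean beta value of both arrays (x axis) for responsive probes, with the level reference as a black line; 1 higher probe is not drawn. The line rises from near 0 to about 0.06, reached at its highest as 0.0623, while Spnb4 at -0.0955 and Fshr and Adra1b under 0 at middle levels lie far below it.

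Lineage lists were described next by all their responsive members. The astrocyte list had Gfap and Slc1a3, the glutamate transporter of astrocytes, whose 0.234 in A2B5 and 0.237 in PSA-NCAM lay 0.0247 below probes of its level, so its members did not move together. The oligodendrocyte and myelin list had 7 responsive probes of 10. Of these, 5 were higher and 2 lower in A2B5, 3 were at least 0.05 higher and 1, Gal3st1, at least 0.05 lower, where all responsive probes had shares of 63.7% higher by any size, 11.5% at least 0.05 higher and 0.906% at least 0.05 lower. The list's median difference was 0.0108, against 0.00370 over all responsive probes, and its median after the level reference was 0.00864 against 0.000291. Mbp (myelin basic protein) had 0.0549 and 0.0647, Olig2 (the oligodendrocyte lineage factor) 0.0750 and 0.0735, and Pmp22 (a protein of peripheral myelin) 0.0682 and 0.0574, all nearly unmethylated in both arrays. A further list of 8 responsive myelination regulators, among them Qk, an RNA-binding protein needed for myelin, at 0.106 and 0.0906, and Nab1, a partner of the Schwann cell factor Egr2, at 0.0514 and 0.0632, was under 0.1 throughout in mean level and had 0 probes past 0.05.

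In the neuronal adhesion, axon and neurotrophin list, A2B5 was above PSA-NCAM at 2 of 6 responsive probes and below it at 4, with Spnb4 alone past 0.05. Ncam1, the carrier of polysialic acid, had 0.0741 in A2B5 and 0.0791 in PSA-NCAM. Bdnf, the neurotrophin, had 0.0622 and 0.0472, Ngfr, the p75 neurotrophin receptor, 0.0480 and 0.0363, and Camk2a, the kinase of excitatory synapses, 0.0642 and 0.0742. L1cam, an axonal adhesion molecule on the X chromosome, stood higher at 0.294 and 0.299. The list's median difference was -0.0051. Apart from Spnb4, its members differed by at most 0.0151 in either direction.

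The neural progenitor list held 12 responsive probes of the Notch, Hes, Id and Sox2 genes. Of these, 9 were higher in A2B5, against 63.7% of all responsive probes, and 10 were under 0.2 in mean level. Most of these genes, which hold precursors back from differentiation, were thus low in both samples. Notch3 and Hes3 were the exceptions. Hes3, a repressor downstream of Notch signals, had 0.611 in A2B5 and 0.530 in PSA-NCAM, and Notch3, a receptor mostly known from vascular smooth muscle, had 0.545 and 0.511, which put Hes3 0.0235 above and Notch3 0.0273 below probes of their level. Sox2, the stem cell factor, had 0.207 and 0.184, and the differentiation inhibitors Id2 and Id3 had 0.0914 against 0.0744 and 0.106 against 0.0888. Hes1, Hes5, Id1, Id4, Jag2, Notch1 and Notch2 had differences between -0.0096 and 0.0068.

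Other cell types had single probes. Ifng, a cytokine of lymphocytes, had 0.609 in A2B5 and 0.601 in PSA-NCAM, and Ednrb, an endothelin receptor of endothelium that astrocytes also carry, 0.120 and 0.108. Probes for the microglia genes Aif1, Cx3cr1, Itgam and Csf1r were not among the 382 analysed. The part that blood or vascular cells played in the results was not tested.

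Receptor families with members at middle levels held most of the higher probes. Receptor lists contained 177 of the 331 responsive probes and 23 of the 38 higher ones. In the range from 0.4 to 0.8, 17 of 29 receptor probes and 13 of 20 other probes were at least 0.05 higher, so at that level receptors and other genes had similar shares. Between 0.2 and 0.4, 22 of 24 receptor probes were higher by any size, with a median difference of 0.0290, against 10 of 18 other probes with 0.0020. This contrast was seen after the values were known and has no test.

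Among purine receptors, the P2X list had 4 responsive probes, all higher in A2B5, with a median difference of 0.0592. Quantile normalization left 3 of the 4 higher. After the level reference its median was 0.0208, falling to 0.00683 with the 2 probes that were not responsive included. P2rx7, the ATP receptor of microglia and immune cells, and P2rx1, that of platelets and smooth muscle, carried it. P2rx5 had 0.790 in A2B5 and 0.772 in PSA-NCAM, 0.0356 below probes of its level, and P2rx4 had 0.153 and 0.146. Of the 6 P2Y probes, P2ry4, a uridine nucleotide receptor, was the only one past 0.05, with 0.666 and 0.573. P2ry5 (now Lpar6), kept in this list by its older name and also counted in the lysophospholipid list, had 0.298 and 0.280. The 3 adenosine receptors, Adora1, Adora2a and Adora2b, were all lower in A2B5 by 0.0036 to 0.0069, at mean levels under 0.07.

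The prostanoid and leukotriene list, which includes the receptor of platelet-activating factor, had 7 responsive probes, of which 6 were higher in A2B5 and 4 by at least 0.05, namely Tbxa2r, Cysltr2, Ptafr and Ltb4r2, against 11.5% of all responsive probes and 30 of the 49 at levels from 0.4 to 0.8. Its median difference of 0.0523 shrank to 0.0113 after the level reference and to 0.00349 after quantile normalization, where Cysltr2 turned negative. Cysltr1, a leukotriene receptor of immune cells, had 0.228 in A2B5 and 0.185 in PSA-NCAM. Ptger3 and Ptgfr, prostaglandin receptors with values near 0.05 in both, differed by less than 0.003. The lysophospholipid and cannabinoid list had 10 probes, 8 higher and 3 past 0.05 (Cnr2, Edg8 and Edg7, now Lpar3), with a median of 0.00693, against 63.7% higher and 11.5% past 0.05 over all responsive probes. Edg1 (now S1pr1), the sphingosine 1-phosphate receptor of endothelium and lymphocytes, was lowest with 0.0744 and 0.0887.

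In the protease-activated, kinin and endothelin list, 6 of 7 probes were higher and 2 were past 0.05, again against 63.7% and 11.5% overall. F2r, the main thrombin receptor, had 0.368 in A2B5 and 0.301 in PSA-NCAM and lay 0.0366 above probes of its level. Both values were below its Met_0 value of 0.397. Ednra, the endothelin receptor of smooth muscle, had 0.0591 and 0.0735.

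Transmitter receptors of synapses were mostly low in both arrays and differed little. The ionotropic glutamate list had 16 responsive probes, 13 of them higher in A2B5, with a median difference of 0.00391. Over all responsive probes 63.7% were higher, and after quantile normalization 12 of these 16 were. Grin2c, the NMDA subunit of cerebellar granule cells, was the only one past 0.05, with 0.328 in A2B5 and 0.272 in PSA-NCAM, and Grid1, a delta glutamate receptor, had 0.0574 and 0.0680. Of the 7 metabotropic glutamate receptors 5 were responsive, and these were higher in A2B5 by 0.0017 to 0.0220. Grm7, which was not responsive, was lower by more, with 0.559 in A2B5 and 0.599 in PSA-NCAM. Among the responsive ones Grm8 had the largest difference, while Grm3, a receptor also found on glia, had 0.0877 and 0.0759 and Grm2, its close relative on presynaptic endings, had 0.140 and 0.135.

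In the GABA and glycine list A2B5 was above PSA-NCAM at 13 of 21 responsive probes. Its median after the level reference was -0.00088, and that sign turned when the 60 nearest probes were used. Gabra2, the alpha-2 subunit of GABA-A receptors, was lowest with 0.2004 and 0.229, 0.0444 below probes of its level, and Gabrb1, a beta subunit, was highest after the reference with 0.152 and 0.126. Gabrp, a subunit found mainly outside the brain, was the only member past 0.05, with 0.549 and 0.487, a difference close to that of other probes of its level (0.00441 above). Both values were below its Met_0 value of 0.565.

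Receptors of the amines and acetylcholine were mixed. Of the 6 responsive adrenergic probes 5 were lower in A2B5, with a median difference of -0.0041. Of the 3 that were not responsive, Adra2c (0.127) and Adrb3 (0.0462) were higher in A2B5 and Adrb1 (-0.0144) was lower. Among the 5 dopamine receptors 3 were lower, with a median of -0.0080 as deposited and -0.0115 after the level reference. Drd3, a limbic dopamine receptor, was highly methylated in both, with 0.926 in A2B5 and 0.909 in PSA-NCAM, while Drd1a (now Drd1), the main striatal one, had 0.0501 in A2B5 and nearly the same value in PSA-NCAM. The 10 serotonin receptors had 9 higher and 1 lower, Htr1a, the autoreceptor of raphe neurons, with 0.0583 and 0.0772. Over all responsive probes 63.7% were higher, and after quantile normalization 6 of these 10 were. Htr1d stood at 0.714 and 0.682 and lay 0.0277 below probes of its level, and Htr5b at 0.138 and 0.119 lay 0.0136 above. The 4 histamine receptors split, with Hrh4, the receptor of blood cells, at 0.593 and 0.525 and Hrh3 lower.

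Of the 7 acetylcholine receptors, 6 were higher in A2B5 as deposited but 6 lay below the level reference, with medians of 0.0131 and -0.0090. Chrm2, the muscarinic receptor of heart and presynaptic endings, had 0.537 in A2B5 and 0.524 in PSA-NCAM, 0.0488 below, and Chrm3, that of glands and smooth muscle, had 0.0711 and 0.0701. As deposited and at matched level these 2 medians therefore pointed in opposite directions, but the second depended on the setting. It was -0.0041 with the 15 or the 60 nearest probes and -0.00078 with fixed ranges of level in their place. On the Met curve scale it was 0.694, and after quantile normalization the family's median difference was 0.

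The neuropeptide list was the largest, with 46 responsive probes. A2B5 was above PSA-NCAM at 28 of them and below it at 18, with 5 (Rxfp2, Trhr2, Nmur2, Tacr2 and Cckar) at least 0.05 higher and 0 as much lower. Its median difference was 0.00221 as deposited and -0.0015 once the median of all responsive probes was subtracted. Nmur2, a neuromedin U receptor of brain and spinal cord, had 0.220 in A2B5 and 0.157 in PSA-NCAM and lay 0.0481 above probes of its level, the highest of the list, and Sstr3, a somatostatin receptor of neuronal cilia, had 0.166 and 0.192 and lay 0.0405 below, the lowest. Npffr2, a receptor of pain-modulating peptides, was close to it with 0.118 and 0.150. The share of 5 in 46 is near the 11.5% found over all responsive probes.

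Among endocrine receptors, 12 of 16 probes were higher in A2B5 (11 after quantile normalization), against 63.7% of all responsive probes. Pthr1 lay furthest above and Fshr furthest below the level reference. This list thus held probes more than 0.05 from their level on both sides. In calcium, cAMP and phosphatase signalling, 6 of 10 probes were lower, 2 at least 0.05 higher and 1, Dusp5, at least 0.05 lower, against 11.5% and 0.906% overall. Cacna1d, an L-type calcium channel subunit, had 0.602 in A2B5 and 0.520 in PSA-NCAM, and Adcy9, an adenylyl cyclase, 0.208 and 0.165. Its relative Dusp6, named after its values were seen, had 0.0804 and 0.0987, the same direction as Dusp5 at a smaller size.

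Inner ear and deafness genes had 28 responsive probes, 21 of them higher in A2B5 and 12 above the level reference. Over all responsive probes 63.7% were higher, and after quantile normalization 14 of these 28 were. Otog, the otogelin of the tectorial membrane, had 0.314 in A2B5 and 0.270 in PSA-NCAM, and Tectb, of the same membrane, lay at the other end of the list. The mitochondrial and redox list had 11 probes, mostly near 0.05 in both arrays, with 5 higher and 6 lower. Dld stood apart from it at 0.474 and 0.367, and Yme1l1, a protease of the inner membrane, was lowest with 0.105 and 0.120. Of 10 developmental factors 9 were higher in A2B5 by at most 0.0175 (Tbx1, a T-box factor) and Mef2a was lower. Over all responsive probes 63.7% were higher, and after quantile normalization 7 of these 10 were. The mixed list of other peptide, amine and complement receptors had C5ar1, the complement receptor of myeloid cells, at 0.820 and 0.751 and Gpr83, a receptor of brain and T cells, at 0.163 and 0.1797.

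Over the 25 lists with at least 3 responsive probes, 14 medians lay above the level reference and 11 below, none by 0.05 or more and 4 by at least 0.01. Every count of higher members as deposited has to be read beside the 63.7% of all responsive probes that were higher in A2B5. That share pools all levels. It was 89 of 178 under 0.1 and 46 of 49 from 0.4 to 0.8, so it is no matched yardstick for lists of mostly low or mostly middle level.

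**Figure D3:**
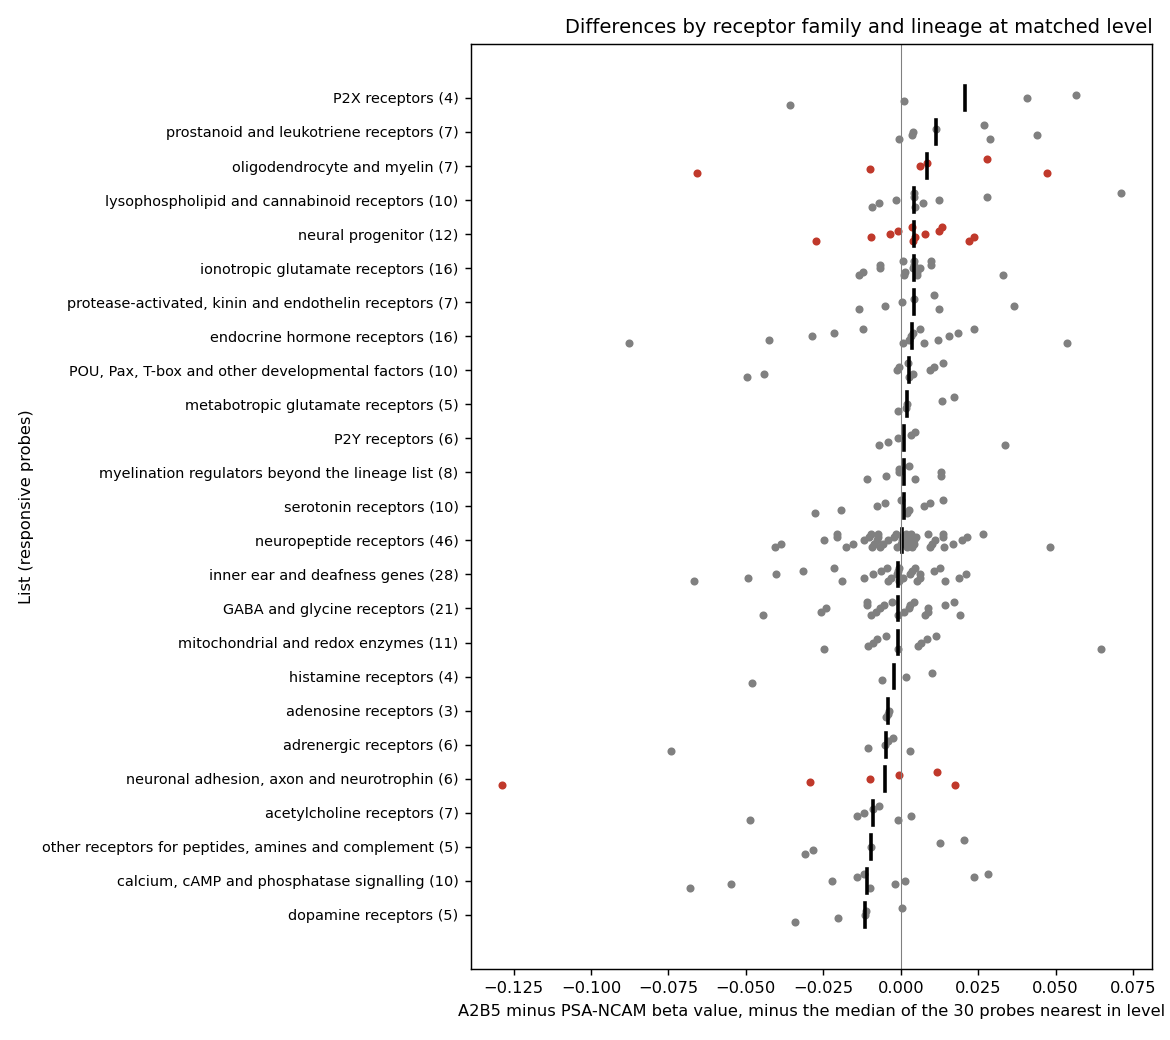
Difference in beta value, A2B5 minus PSA-NCAM, after subtraction of the median of the 30 probes nearest in level (x axis), for each responsive probe of the 25 lists (rows, with the number of responsive probes), with lineage lists in red, all other lists in grey and medians, over all members, as black bars; 1 probe is not drawn. Medians run from -0.0115 (dopamine receptors) to 0.0208 (P2X receptors), while single probes run from -0.129 (Spnb4) to 0.0713 (Cnr2).

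Promoter CpG number, which did not enter the choice of probes, was then set beside the levels. RefSeq promoter windows (300 bases, from 250 before to 50 after the start) were found for 251 of the 331 responsive probes, with a median of 17 CpGs per window. The 85 probes of genes with at most 11 CpGs had a median level of 0.235 and a median difference of 0.0137, and 20 of them were at least 0.05 higher in A2B5. The 83 with over 22 CpGs had 0.0707 and -0.00087, and 5 were higher. The higher probes with a window (29) had a median of 6 CpGs and the lower probes (3) one of 24.75.

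Within the range from 0.4 to 0.8, 17 of 26 probes of CpG-poor genes and 6 of 11 other probes were at least 0.05 higher, with median differences of 0.0613 and 0.0501. The excess of higher probes among CpG-poor genes therefore went along with their level, and was small within it. Higher probes of CpG-rich genes included Edg8, with 27, and Cacna1d, with 33.5 as the mean of its windows.

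**Figure D4:**
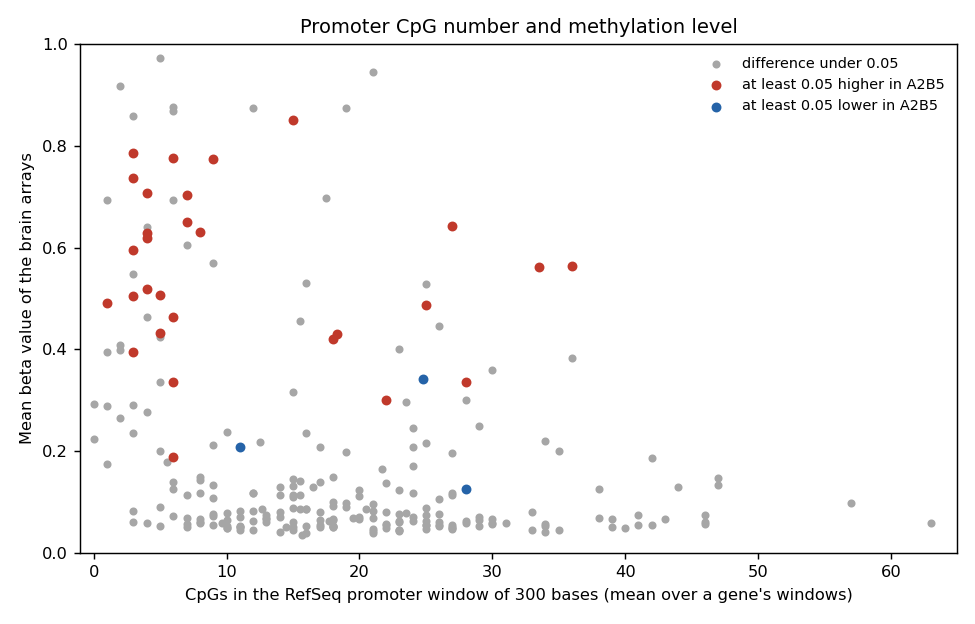
Mean beta value of both brain arrays (y axis) against CpGs in the RefSeq promoter window of 300 bases (x axis, mean over a gene's windows) for responsive probes with a window, coloured by difference. Probes higher in A2B5 by 0.05 or more cluster at few CpGs (median 6) and middle levels, and the 3 lower probes lie at 11 to 28 CpGs.

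The 15 X-linked responsive probes had medians of 0.289 in A2B5 and 0.264 in PSA-NCAM, and 14 were higher in A2B5, 2 of them by at least 0.05. Their median after the level reference was -0.00046, with 7 above it and 8 below, so at matched level they were evenly split. The sex of the animals was not given.

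A2B5 exceeded the probe's own Met_100 at 6 responsive probes and PSA-NCAM at 3. Those in A2B5, named after their values were seen, were Gje1, Uts2r, Plg, Gabrr1, Strc and Ppp2r5c, and at such probes the Met series gives no upper mark for the brain level.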

How the data were processed

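DNA methylation was read on a custom Illumina GoldenGate array, per the labels and the series' design text, and the authors deposited 1 value per probe for 382 probes on each of 7 arrays. The deposited numbers, all between 0 and 1, were read as beta values that the authors computed by steps not given in the sources used here. A background correction or scaling among those steps could move a difference of 0.05. Precision is limited by 1 array per title.

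Differences, level references and list medians were computed in Python 3.11.15 with numpy 2.4.6 and pandas 2.3.3, Met curves with scikit-learn 1.9.0 (isotonic, then linear between points) and plots with matplotlib 3.10.9. The level reference code was checked on simulated data with far less noise than these data hold. That check covers the code only, and not whether a departure of 0.05 can be told from noise. Array error was estimated from the departure of Met_50 from the mean of Met_25 and Met_75 over responsive probes, which also holds any bend of the Met curves. Symbols were matched to RefSeq (GRCm38.p6), 362 as current and 20 as older names, and 11 of the current ones have also named another gene. The 30 lists, the limit of 0.05 and the members were chosen with earlier results of these data known, and some family lists were added or completed after the probe names were read. Lists can share probes, as with Edg8, Camk2a and P2ry5. Genes named were the 12 highest and 12 lowest responsive probes, the same after the level reference, each list's extremes (at least 3 responsive probes) and all responsive lineage members, other names being chosen after their values were seen. Of the 82 probes so named, 1 is not reported here. Alternatives covered the size, the responsive rule, scaling, level reference, scale and summary.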

Additional observations from a re-analysis of the deposited data

Results flagged for a closer look

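The comparison left out the 51 probes that did not respond by 0.3 in the Met series. Of these, 38 (74.5%) were higher in A2B5, against 63.7% of the responsive probes, 8 (15.7%) by at least 0.05, against 11.5%, and 0 lower by as much. The 8 are listed because they lie outside the probes compared and differ by at least 0.05, with no sample-to-sample spread to set them against. Adra2c, an alpha-2 adrenergic receptor, had a difference of 0.127 and Lhb, the beta chain of luteinizing hormone, 0.117, both past the largest difference among responsive probes. Lhcgr, the receptor of that hormone, had 0.113, Ghrhr, the receptor of growth hormone-releasing hormone, 0.0923, and Gria3, an AMPA receptor subunit, 0.0797. Bsnd, a chloride channel subunit of ear and kidney, had 0.0716, F2rl3, a protease-activated receptor, 0.0596 and Taar1, a trace amine receptor, 0.0571. Met_0 and Met_100 lie less than 0.3 apart for these probes, so the Met series marks the ends of their scale poorly or not at all.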

How the results depend on the processing

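No paired analysis was possible because each title has 1 array, and for the same reason no replicate could be left out. The counts of 38 higher and 3 lower probes became 62 and 8 at a size of 0.03, 5 and 0 at 0.1, and 7 and 10 after quantile normalization. Under the other limits for responsive probes, with all probes, and with the median difference subtracted they were 34 to 46 and 2 to 4. Of the 25 lists, 14 had a median above the level reference as reported, 11 to 17 under the other settings on the beta and log2 scales, and 6 on the Met curve scale, where 18 medians were 0 because values below Met_0 read as 0. List medians changed sign in 0 to 5 lists per setting, all of them lists whose median lay under 0.01 from the reference, but dopamine receptors and calcium, cAMP and phosphatase signalling, which lay 0.01 or more below it, became 0 on the Met curve scale. The order of lists also moved. The oligodendrocyte and myelin list (log2 scale) and the prostanoid and leukotriene list (means over members) stood above the P2X list. Calcium signalling (15 nearest probes), adrenergic receptors (means) and neuronal adhesion (means and Met curve scale) stood below dopamine receptors. Of the 38 higher probes, 4 turned negative after quantile normalization and 2 after subtraction of the level reference, none of them among the 82 probes that the naming rule selects. With no second array of either sample, the error of an array was estimated only from Met_25, Met_50 and Met_75, which lie at higher levels than most brain values.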
